A study of Mus musculus with 19 samples.

Results

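The comparison described here sets Mettl8-cKO against WT neural progenitor cells within 1 of the study's RNA-seq library sets, named set 2 from the prefix of its library names. It holds 7 libraries of the 19 samples of the series, of which 12 are RNA-seq libraries: 4 labelled cKO (replicates 3 to 6) and 3 labelled WT (replicates 4 to 6). All were made from total RNA of cells from the mouse cerebral cortex at embryonic day 17.5, grown on Matrigel-coated plates in medium with bFGF and EGF, with a SMART-seq2 library method. The groups differ in genotype alone as far as the labels go: WT, and a conditional knockout of Mettl8 that the labels also call Mettl8 knockout. The labels name neither the Cre driver nor the deleted exons, neither the strain nor the number of embryos, and do not say whether replicates are separate cultures. The p-values therefore measure the spread between these libraries, which may be technical. The other RNA-seq libraries, 2 cKO and 3 WT of library set 1, share no sample with set 2 and are given beside it.

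METTL8 is a methyltransferase of the mitochondrion that places 3-methylcytidine (m3C) in the anticodon loop of mitochondrial tRNAs, and so acts in the translation of the respiratory chain subunits that mitochondrial DNA encodes. Neural progenitors of the late embryonic cortex (radial glia and the cells they give rise to) divide in response to FGF and EGF in culture, and lose these divisions as they turn into neurons, astrocytes or oligodendrocytes. The study's title names the upkeep of cortical neural stem cells as the question. The genotype comparison was therefore described by single genes first, then by the genes of m3C methylation, of mitochondria and metabolism, of the cell cycle, and of the cell types of the cortex.

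Libraries held 15.1 to 18.9 M counts in WT and 11.8 to 15.8 M in cKO, so depth was 16.8 ± 1.90 M (SD, n = 3) against 14.3 ± 1.78 M (SD, n = 4). Markers of neural stem cells and radial glia were high in all 7 libraries: Fabp7, a fatty acid binding protein of radial glia, at 7226 to 9872 CPM (read counts scaled to library size), the glutamate transporter Slc1a3 at 3272 to 5238 CPM and the transcription factor Sox9 at 798 to 1212 CPM. Defining markers of blood-derived and vascular cells were at or near 0, with C1qa and Cdh5 at 0 in every library and Cx3cr1 at most at 0.168 CPM. Library cKO replicate 4 had the fewest counts and stood apart on the first principal component (27.0% of the variance), at 39.1 against -24.5 to 10.8 for the other 6. Library cKO replicate 5 was the sole male one, with 0 CPM of Xist and 659 CPM summed over 4 Y-linked genes, against 208 to 232 CPM of Xist in the other 6. Pearson r of log2 CPM within a genotype ran from 0.977 to 0.985, and no pair of libraries agreed within sampling noise.

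Across 13367 genes tested, 2 genes were higher in cKO and 0 were lower at an adjusted p under 0.05 (edgeR's quasi-likelihood test with Benjamini-Hochberg adjustment). The genes called were Gh, which encodes growth hormone, and Zfp277, which encodes a zinc finger protein. They are 0.015% of the genes tested. A gene is termed called only where it passed this edgeR test, and calls by another tool or without a library are named as such. Without adjustment, 1060 genes (7.93%) had a p under 0.05 in the same edgeR fit, of which 498 were higher (3.73%) and 562 lower (4.2%). Libraries did not overlap, with all 4 cKO above all 3 WT, for 517 genes (3.87%), and with all cKO below all WT for 543 genes (4.06%). The median log2 fold change, cKO over WT, was -0.0012, and 49.7% of genes lay above 0, so scaling left no shift of the whole distribution.

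**Figure D1:**
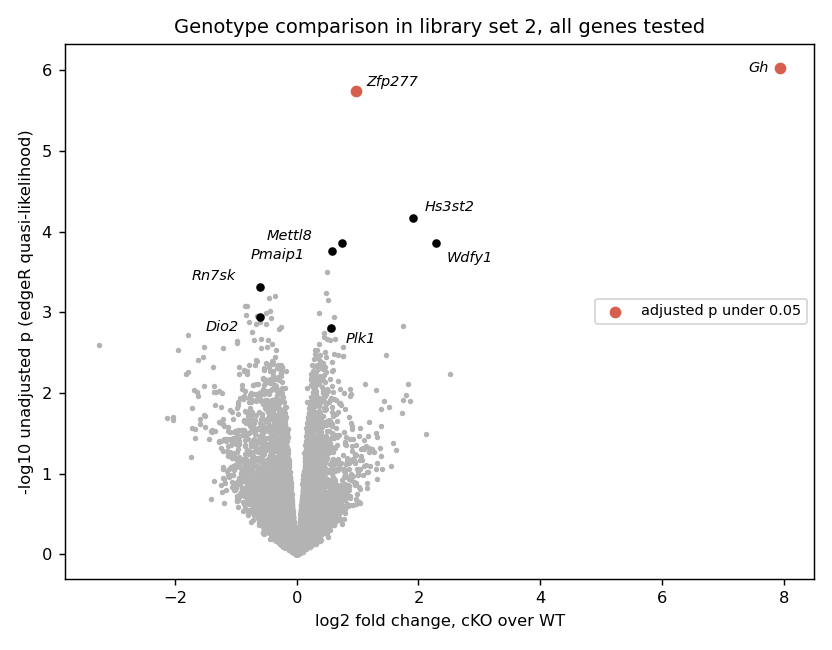
Unadjusted p (as -log10, vertical axis) against log2 fold change, cKO over WT (horizontal axis), for each of the 13367 genes tested in set 2. Red points are the 2 genes with an adjusted p under 0.05 and black points are other genes named in the text. Gh stands at a fitted log2 fold change of 7.95, which is no measure of its size since all 3 WT libraries had 0 counts.

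Gh (chromosome 11, 106300261 to 106303703 in GRCm38.p6) was read in every cKO library and in no WT library of set 2. The counts were 22, 23, 31 and 39 in cKO replicates 3 to 6, 115 in all, against 0, 0 and 0 in WT. In CPM this is 1.55, 1.93, 1.97 and 2.53, or 1.99 ± 0.406 (SD, n = 4), while a count of 0 allows up to 0.161 to 0.198 CPM in a single WT library. With 3 counts over the 3 WT libraries as the floor (0.0597 CPM), Gh was at least 33.4-fold higher in cKO, and edgeR gave an adjusted p of 0.0122. An exact two-sided permutation test over the 35 splits of 7 libraries gave p = 0.0286, the smallest it can give. This p adds no separate support, since Gh, Zfp277, Mettl8 and Dio2 were taken for this test with earlier results of these data known. The level is low: the other 10 pituitary hormone and pituitary factor genes looked at, among them Prl, Cga and the pituitary factor Pou1f1, were at most at 0.398 CPM and were not tested. In set 1 the genotypes overlapped, since WT replicate 3 stood at 1.43 CPM, WT replicates 1 and 2 at 0, and the cKO libraries at 1.73 and 1.21 CPM. The log2 fold change for Gh in set 1 was 1.69 (SE 1.07), and with all 12 libraries in the fit the set 2 contrast had an adjusted p of 0.365 by edgeR. Growth hormone sequence is a common part of transgene cassettes, and whether these reads come from the chromosome 11 gene was not tested.

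Zfp277 (chromosome 12, 40315046 to 40445790) was the other gene called. Levels were 13.7, 14.9 and 11.9 CPM in WT replicates 4 to 6 and 25.2, 27.4, 24.2 and 29.1 CPM in cKO replicates 3 to 6. The lowest cKO library thus lay well above the highest WT library, and means were 13.5 ± 1.51 (SD, n = 3) and 26.5 ± 2.18 CPM (SD, n = 4). The log2 fold change was 0.97 (SE 0.131, adjusted p = 0.0122 by edgeR), a 1.96-fold higher level, with an exact permutation p of 0.0286. Set 1 showed no such difference, with 17.0, 16.1 and 18.4 CPM in WT and 16.6 and 15.8 CPM in cKO (log2 fold change -0.08, SE 0.158). Set 1 levels of both genotypes lay between the WT and the cKO levels of set 2. Whether the genotype difference itself differs between the sets was tested as an interaction in edgeR over 13105 genes. Zfp277 had the smallest p of that test (difference of log2 fold changes 1.06, SE 0.195, unadjusted p = 3.61e-05 by edgeR) and did not pass after adjustment (edgeR adjusted p = 0.474). Neither call survived without WT replicate 4 (edgeR adjusted p = 0.0818 for both) or without WT replicate 5 (0.0641 for both). Without WT replicate 6, Zfp277 stood at 0.113 and Gh at 0.0492.

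Zfp277 lies on chromosome 12, as does Dio2, but far from it. Of 15 tested genes that start within 5 Mb of the start of Zfp277, 5 lay above 0 (median -0.01), 1 had an unadjusted p under 0.05 (Arl4a, log2 fold change -0.20, SE 0.0765) and 0 were called. The neighbour Bzw2 was at 0.07 (SE 0.0778) and Lrrn3 at 0.12 (SE 0.0741). The promoters of Zfp277 and Dio2 are shown because Zfp277 was called and Dio2 had cKO levels under WT levels in both sets. Each window is the RefSeq stretch around the annotated start of the gene in GRCm38.p6, 300 bases, 5' to 3' on the strand of the gene. Capitals mark CCAAT on either strand (ATTGG on the strand shown) in Zfp277, and in Dio2 the cyclic AMP response element TGACGTCA, whose reverse complement is itself, and the TATA box letters TATAAA.
Zfp277 promoter, chr12:40445741-40446040, minus strand: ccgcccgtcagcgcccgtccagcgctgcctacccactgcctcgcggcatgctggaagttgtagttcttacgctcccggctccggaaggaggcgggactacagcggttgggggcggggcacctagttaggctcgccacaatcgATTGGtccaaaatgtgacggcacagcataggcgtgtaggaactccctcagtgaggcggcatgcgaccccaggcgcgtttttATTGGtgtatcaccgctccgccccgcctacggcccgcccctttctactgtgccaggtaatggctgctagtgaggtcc
Dio2 promoter, chr12:90738989-90739288, minus strand: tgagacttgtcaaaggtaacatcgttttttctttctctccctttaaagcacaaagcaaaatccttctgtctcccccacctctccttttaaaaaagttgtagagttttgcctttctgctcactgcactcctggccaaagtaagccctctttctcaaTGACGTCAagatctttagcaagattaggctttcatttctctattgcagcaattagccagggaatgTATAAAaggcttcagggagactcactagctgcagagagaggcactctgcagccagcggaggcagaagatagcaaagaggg
The Zfp277 window held CCAAT 2 times, both on the opposite strand, a motif found on either strand in 41.1% of 27025 genes with such a window. The Dio2 window held TGACGTCA 95 bases before the annotated start, a motif of 2.03% of these genes, and TATAAA 30 bases before it, a motif of 15.7%. Among the 9269 tested genes with a window the shares were 43.8% for CCAAT, 3.73% for TGACGTCA and 8.65% for TATAAA. These matches describe letters only. No window of Gh is shown.

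Mettl8 levels in the libraries labelled cKO lay above those in WT, not below. Mettl8 (chromosome 2, 70964561 to 71056388) stood at 36.3, 36.2 and 56.0 CPM in WT replicates 4 to 6 and at 67.8, 60.0, 78.7 and 81.3 CPM in cKO replicates 3 to 6. The genotypes did not overlap, with WT replicate 6 close to cKO replicate 4. The log2 fold change was 0.75 (SE 0.15) and did not pass over all genes (edgeR adjusted p = 0.375), whereas DESeq2, which called 6 genes (0.0449% of those tested), called it (adjusted p = 0.00392). Without WT replicate 6 edgeR called it too (log2 fold change 0.99, adjusted p = 0.0373), and over the libraries left out in turn the adjusted p reached 0.949. The exact permutation p was 0.0286. In set 1 the log2 fold change was 0.56 (SE 0.15), with 38.6, 54.2 and 57.8 CPM in WT and 74.3 and 73.8 CPM in cKO. Whole-gene counts include exons that the deletion may leave in place, so they are no check of the genotype labels.

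The other m3C genes did not pass the test. Mettl6, which modifies cytosolic tRNA-Ser, had 114, 111 and 115 CPM in WT and 105, 111, 109 and 97.7 CPM in cKO (log2 fold change -0.10, SE 0.0801). Sars, the cytosolic seryl-tRNA synthetase, was at -0.05 (SE 0.0674), and Sars2, its mitochondrial counterpart, at 0.42 (SE 0.293). In this list of 6 genes 4 lay above 0, the median was 0.17 (0.03 in set 1) and edgeR called 0, while DESeq2 called Mettl8. The list median was 0.04 without cKO replicate 3, 0.08 without WT replicate 4 and 0.26 without WT replicate 6. Of 43 tested genes that start within 5 Mb of the start of Mettl8, 27 lay above 0 with a median of 0.05 that was 0.0019 without WT replicate 6, and 0 had an unadjusted p under 0.05. Among them Ssb, which lies near Mettl8 on chromosome 2, was at 0.05 (SE 0.081), Dcaf17 at -0.23 (SE 0.115) and Dync1i2 at -0.15 (SE 0.0703).

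Dio2 encodes the deiodinase that turns thyroxine into the active thyroid hormone, and its cKO levels lay below its WT levels without a call over all genes. Levels were 245, 221 and 256 CPM in WT replicates 4 to 6 and 167, 101, 163 and 200 CPM in cKO replicates 3 to 6. The groups did not overlap, and cKO replicate 4 was the lowest. The log2 fold change was -0.61 (SE 0.153, edgeR adjusted p = 0.597; exact permutation p = 0.0571, two-sided). In set 1 it was -0.43 (SE 0.102), again without overlap: 208, 203 and 182 CPM in WT and 135 and 160 CPM in cKO. The rest of the thyroid hormone list showed no common direction, with 8 of 14 tested genes above 0 and a median of 0.02. Thrb, a thyroid hormone receptor, was at 0.41 (SE 0.185, unadjusted p = 0.0399, edgeR), with 11.3 to 22.2 CPM in WT and 19.5 to 25.6 CPM in cKO, and moved between 0.19 without WT replicate 4 and 0.63 without WT replicate 6. The corepressor Ncor1 was at 0.03 (SE 0.0703).

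**Figure D2:**
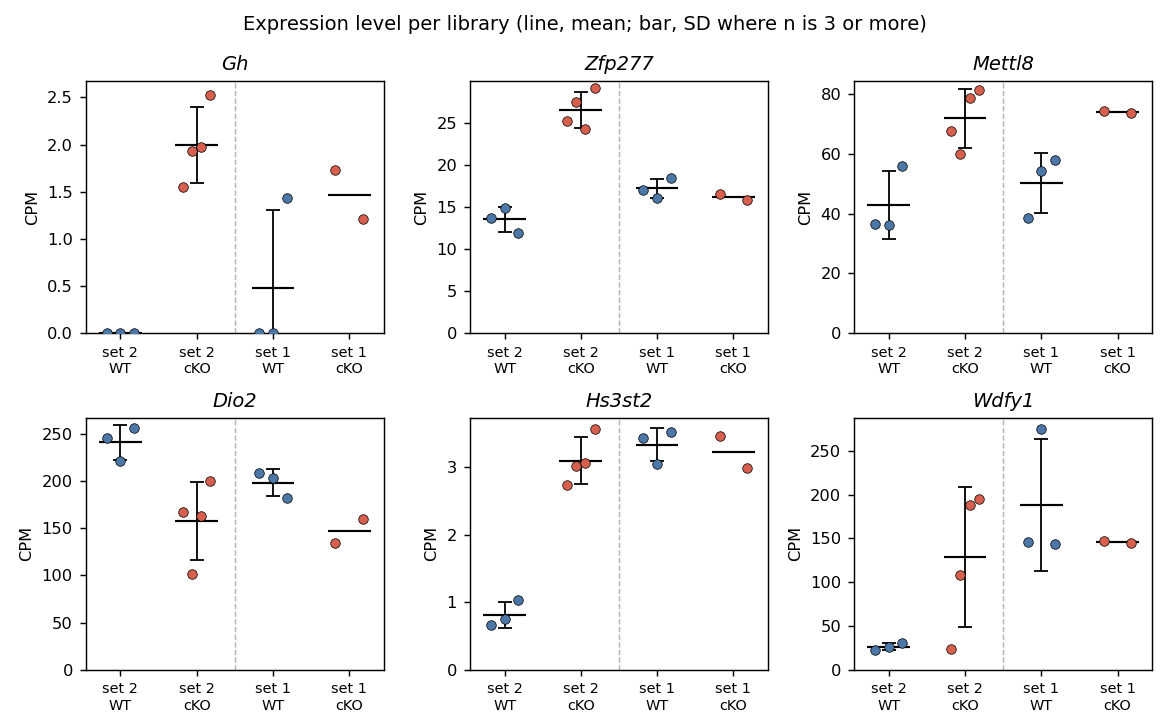
Level in CPM (vertical axis, from 0) of 6 genes in each library, with set 2 left and set 1 right of the dashed line, WT in blue and cKO in red. Horizontal lines are means and bars are SD where a group has 3 or more libraries. Gh and Zfp277 were called in set 2, Mettl8 and Dio2 differed in the same direction in both sets, and Hs3st2 and Wdfy1 were low in set 2 WT libraries (all 3 libraries) but not in set 1 WT libraries.

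Among the 12 higher genes of smallest p, the next after Gh and Zfp277 was Hs3st2, which encodes a heparan sulfate sulfotransferase. It stood at 0.661, 0.75 and 1.03 CPM in WT and at 2.74, 3.02, 3.05 and 3.57 CPM in cKO replicates 3 to 6, without overlap (log2 fold change 1.92, SE 0.357, edgeR adjusted p = 0.306, DESeq2 0.00392). In set 1 all 5 libraries had 2.98 to 3.51 CPM, at the level of the set 2 cKO libraries (log2 fold change -0.05). With all 12 libraries in the fit, edgeR called Hs3st2 in set 2 (adjusted p = 0.0397). Wdfy1, which encodes an endosomal protein, behaved in another way. It stood at 22.8, 26.1 and 30.2 CPM in WT and at 23.5 CPM in cKO replicate 3, against 108, 188 and 195 CPM in cKO replicates 4 to 6 (log2 fold change 2.29, SE 0.457, edgeR adjusted p = 0.375). Without cKO replicate 3, Wdfy1 was among 3 genes called (0.0227% of those tested; edgeR adjusted p = 1.99e-05). Set 1 libraries had 143 to 275 CPM of Wdfy1 in both genotypes, so the low level was seen in 3 WT libraries and 1 cKO library of set 2.

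None of the other higher genes was called by edgeR, while DESeq2 called Pmaip1 and Gle1. Pmaip1, a proapoptotic gene that p53 induces, stood at 46.6, 37.1 and 32.8 CPM in WT and at 57.6, 58.4, 62.7 and 53.1 CPM in cKO (log2 fold change 0.58, SE 0.118, edgeR adjusted p = 0.391, DESeq2 0.0137). Gle1, an mRNA export factor, had 72.0, 63.6 and 67.1 CPM in WT and 93.8, 111, 95.6 and 79.5 CPM in cKO (0.49, SE 0.106, DESeq2 adjusted p = 0.0368). Uhrf1, which guides maintenance DNA methylation at replication forks, was at 0.49 (SE 0.113), and Oip5, which helps to load the centromeric histone, at 0.51 (SE 0.121). The deubiquitinase gene Usp10 was at 0.36 (SE 0.0896), Fam70a at 0.61 (SE 0.155) and the E3 ligase gene Rnf128 at 1.74 (SE 0.453, at most 2.46 CPM). In all of these genes the 4 cKO libraries lay above the 3 WT libraries, as they did for 3.87% of all genes. The genes were chosen by smallest p in the same libraries, so this separation follows largely from the choice. Set 1 values were 0.11 for Pmaip1, -0.07 for Gle1, 0.04 for Uhrf1 and -0.06 for Oip5, so these differences were not of that size there.

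None of the 12 lower genes of smallest p was called by edgeR or DESeq2. Malat1, a nuclear long noncoding RNA, stood at 3080, 3064 and 4253 CPM in WT and at 3012, 2311, 2570 and 2458 CPM in cKO (log2 fold change -0.42, SE 0.106). Rn7sk, the 7SK RNA that restrains transcription elongation, was at 52.5, 36.4 and 42.3 CPM in WT and 28.4, 30.9, 32.4 and 23.4 CPM in cKO (-0.60, SE 0.137), and its many near copies in the genome make its counts uncertain. The entry Rnr1 was at -0.35 (SE 0.0827) and matched no gene of the reference table. Aldh1a3, which makes retinoic acid, had 18.8, 14.4 and 21.0 CPM in WT and 10.9, 5.96, 10.2 and 12.9 CPM in cKO (-0.84, SE 0.21). The GABA transporter gene Slc6a11, of astrocytes, was at -0.65 (SE 0.164), the polyamine acetyltransferase gene Sat1 at -0.44 (SE 0.11), the kinase gene Tec at -0.78 (SE 0.2), St5 at -0.51 (SE 0.126) and Ypel2 at -0.82 (SE 0.199). Tm4sf1, a surface protein gene, was at -0.45 (SE 0.107). Fam19a2, which encodes a secreted neuronal peptide, was at -0.85 (SE 0.207) with 6.43 to 7.33 CPM in WT and 3.37 to 4.19 CPM in cKO. In set 1 Fam19a2 was at -1.33, Aldh1a3 at 0.43 and Slc6a11 at 0.15.

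Most genes of the respiratory chain and of glycolysis lay slightly below 0, and none of them was called. Of the 13 mRNAs encoded in mitochondrial DNA, 7 were measured and all 7 lay below 0, with a median of -0.14 that was -0.09 without WT replicate 5 or without cKO replicate 3. mt-Co1, a core subunit of cytochrome c oxidase, had 4788, 4599 and 4635 CPM in WT replicates 4 to 6 and 4018, 4338, 4162 and 4084 CPM in cKO replicates 3 to 6. These groups did not overlap (log2 fold change -0.17, SE 0.0529, unadjusted p = 0.00533, edgeR). mt-Nd6 was at -0.20 (SE 0.0835) and mt-Cytb, the most abundant, at -0.08 (SE 0.0555). In set 1 the median of the same 7 mRNAs was 0.0013, mt-Co1 was at 0.17 and 3 of the 7 lay below 0 in both sets. The other 6 mRNAs were at most at 0.168 CPM in any set 2 library and were not tested. By library, cKO replicate 3 was the lowest on this list (-0.21 as the mean log2 CPM relative to the mean of the 7 libraries) and cKO replicates 4 and 6 (0.02 and -0.00057) were near that mean.

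Nuclear genes of the respiratory chain behaved more alike in both sets. Of 38 tested subunits of complexes II to V, 29 lay below 0 (median -0.08), 8 had an unadjusted p under 0.05 and all 8 were lower, while 4.2% of all genes were lower at that level. In set 1 the median was -0.06, and 28 of the 29 lay below 0 there too, where 49.9% of all genes lay above 0. Atp5k, a subunit of the ATP synthase, stood at 235, 218 and 223 CPM in WT and at 182, 210, 188 and 176 CPM in cKO, without overlap (log2 fold change -0.25, SE 0.0788). Atp5l, another ATP synthase subunit, was at -0.34 (SE 0.131), whereas the catalytic subunit Atp5a1 was at 0.04 (SE 0.0595) and Sdha of complex II at -0.07 (SE 0.0603). For complex I 26 of 36 nuclear subunits lay below 0 (median -0.06, and -0.08 in set 1), and 23 of 36 did so in both sets. Without WT replicate 5 the complex I median was -0.03, and without cKO replicate 3 it was -0.02. Ndufa3 had 261, 231 and 231 CPM in WT and 194, 224, 202 and 183 CPM in cKO (-0.26, SE 0.0831), and Ndufa7 was at -0.16 (SE 0.0678), while Ndufc2 (-0.07, SE 0.0678) and Ndufv2 (-0.06, SE 0.0667) overlapped between genotypes. Over both lists 11 of 74 subunits had an unadjusted p under 0.05, all of them lower in cKO. Library cKO replicate 4 was not low on either list (0.05 for complexes II to V, 0.06 for complex I), and cKO replicate 3 was lowest on both (-0.12 and -0.07). WT replicates 4 to 6 stood at 0.09, 0.08 and -0.0049 for complexes II to V, and at 0.04, 0.02 and 0.0084 for complex I. The genotypes thus overlapped on both lists.

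Genes of mitochondrial translation showed no direction, with 16 of 32 above 0 and a median of 0.0061, and 0 had an unadjusted p under 0.05. The list summed to 8456 to 9753 CPM in WT and 7704 to 9394 CPM in cKO, mostly Lars2, the mitochondrial leucyl-tRNA synthetase. Lars2 had 7704, 7253 and 6396 CPM in WT and 5737, 6833, 6606 and 7370 CPM in cKO (log2 fold change -0.10, SE 0.0788). In set 1 Lars2 was at -0.30 (SE 0.0856), without overlap and without a call, and the list median was -0.04. In set 2 the ribosomal protein gene Mrps14 was at -0.08 (SE 0.0752) and the release factor gene Mtrf1 at -0.25 (SE 0.131). Targets of ATF4, the transcription factor of the integrated stress response, which mitochondrial dysfunction can switch on, did not share a direction either: 10 of 23 lay above 0, with a median of -0.06. The abundant serine and asparagine synthesis genes Psat1 (0.09, SE 0.0712) and Asns (0.02, SE 0.0675) did not pass, Psph was at -0.23 (SE 0.089) and Ddit4, an inhibitor of mTOR signalling, at -0.51 (SE 0.187). Of 24 glycolytic and hypoxia-linked genes 19 lay below 0 (median -0.14, and -0.10 in set 1), and 15 did so in both sets. Ldha had 3094, 3166 and 3016 CPM in WT and 2785, 2496, 2640 and 3478 CPM in cKO, so that cKO replicate 6 exceeded all WT libraries (-0.12, SE 0.0886). Aldoa was at 0.05 (SE 0.1), Aldoc at -0.35 (SE 0.126) and the oxygen sensor gene Egln3 at -0.38 (SE 0.168). The glycolysis median was -0.26 without cKO replicate 6, -0.05 without cKO replicate 4 and -0.03 without cKO replicate 4 and WT replicate 5. In cholesterol synthesis 11 of 20 genes lay above 0 (median 0.03), with Hmgcs1 at -0.09 (SE 0.0784), Sqle at 0.18 (SE 0.0772) and Mvk at 0.34 (SE 0.172).

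All 25 mitotic genes lay above 0 in cKO, where 49.7% of all genes did. The median log2 fold change was 0.15, 8 genes had an unadjusted p under 0.05 (3.73% of all genes were higher at that level), and in 7 the 4 cKO libraries lay above the 3 WT libraries (3.87% of all genes), while 0 were called. Plk1, the kinase that drives entry into mitosis, stood at 27.5, 22.9 and 23.5 CPM in WT and at 43.5, 41.9, 30.3 and 29.9 CPM in cKO replicates 3 to 6 (log2 fold change 0.56, SE 0.147, edgeR adjusted p = 0.597). Top2a, the mitotic DNA topoisomerase, had 1613, 1544 and 1466 CPM in WT and 1750, 1717, 1754 and 1689 CPM in cKO (0.16, SE 0.0586). The proliferation marker Mki67 had 593, 574 and 619 CPM in WT and 789, 671, 685 and 627 CPM in cKO (0.22, SE 0.0779). Groups of these 3 genes did not overlap, with cKO replicate 6 closest to WT for Mki67. Prc1, which bundles the spindle midzone, was at 0.08 (SE 0.0638), with overlap. The set 1 median was 0.03, and 20 of the 25 genes lay above 0 there, against 49.9% of all genes in set 1. Set 1 values were 0.29 for Plk1, 0.12 for Mki67 and 0.06 for Top2a. Library scores, the mean log2 CPM of the list relative to the mean of the 7 libraries, were 0.0040, -0.08 and -0.19 in WT replicates 4 to 6 and 0.02, 0.17, 0.06 and 0.01 in cKO replicates 3 to 6. WT replicate 4 thus lay next to cKO replicates 3 and 6, and cKO replicate 4 was highest. The median was 0.10 without cKO replicate 4 and WT replicate 5.

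The promoters of Plk1 and Top2a are shown for this list, whose members lay on 1 side of 0 together. Late cell cycle genes are known for a cell cycle homology region (CHR), the letters TTTGAA, that the DREAM and MuvB complexes bind, and for CCAAT boxes bound by NF-Y. Capitals mark TTTGAA and CCAAT on either strand (TTCAAA and ATTGG on the strand shown), in 300 bases around the RefSeq start in GRCm38.p6.
Plk1 promoter, chr7:122159185-122159484, plus strand: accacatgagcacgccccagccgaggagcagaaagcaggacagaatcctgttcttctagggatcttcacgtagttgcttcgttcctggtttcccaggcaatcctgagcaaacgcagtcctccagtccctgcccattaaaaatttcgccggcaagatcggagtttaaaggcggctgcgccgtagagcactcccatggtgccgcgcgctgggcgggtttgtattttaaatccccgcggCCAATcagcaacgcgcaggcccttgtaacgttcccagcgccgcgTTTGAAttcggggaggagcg
Top2a promoter, chr11:99024140-99024439, minus strand: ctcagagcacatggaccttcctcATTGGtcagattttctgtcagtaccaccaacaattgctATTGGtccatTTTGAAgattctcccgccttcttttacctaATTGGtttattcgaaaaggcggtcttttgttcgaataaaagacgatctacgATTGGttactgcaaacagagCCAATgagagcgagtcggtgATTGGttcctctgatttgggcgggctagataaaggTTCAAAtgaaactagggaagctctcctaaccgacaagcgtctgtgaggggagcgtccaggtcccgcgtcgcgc
Plk1 held CCAAT 14 bases before the annotated start and TTTGAA once, after that start. Top2a held TTTGAA 2 times and CCAAT 6 times, counting both strands, and no match of one motif overlapped a match of the other in these windows. Of the 21 mitotic genes with a window 16 held TTTGAA (76.2%) and 18 held CCAAT (85.7%), while 13.9% and 43.8% of 9269 tested genes with a window did. Of 19 G1/S genes with a window 2 held TTTGAA (10.5%) and 12 held CCAAT (63.2%). These shares describe the promoters of the lists and say nothing of what bound there in these cells.

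Genes of DNA replication and the G1/S transition lay above 0 in 22 of 25 cases, with a median of 0.13 and 0 called. At an unadjusted p under 0.05, 6 were higher, while 3.73% of all genes were. Mcm4, a subunit of the replicative helicase, had 416, 371 and 390 CPM in WT and 457, 493, 461 and 430 CPM in cKO, without overlap (log2 fold change 0.23, SE 0.0721). The ribonucleotide reductase genes Rrm1 (0.13, SE 0.0683) and Rrm2 (0.10, SE 0.0657) overlapped between genotypes. This list did not share its direction with set 1, where the median was -0.04 and 9 of 25 genes lay above 0 against 49.9% of all genes there, and it was not stable to 2 libraries: the median was 0.07 without cKO replicate 4 and 0.02 without cKO replicate 4 and WT replicate 5. Library scores were 0.28 in cKO replicate 4 and -0.17 in cKO replicate 6, against 0.02, -0.15 and -0.10 in WT replicates 4 to 6.

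**Figure D3:**
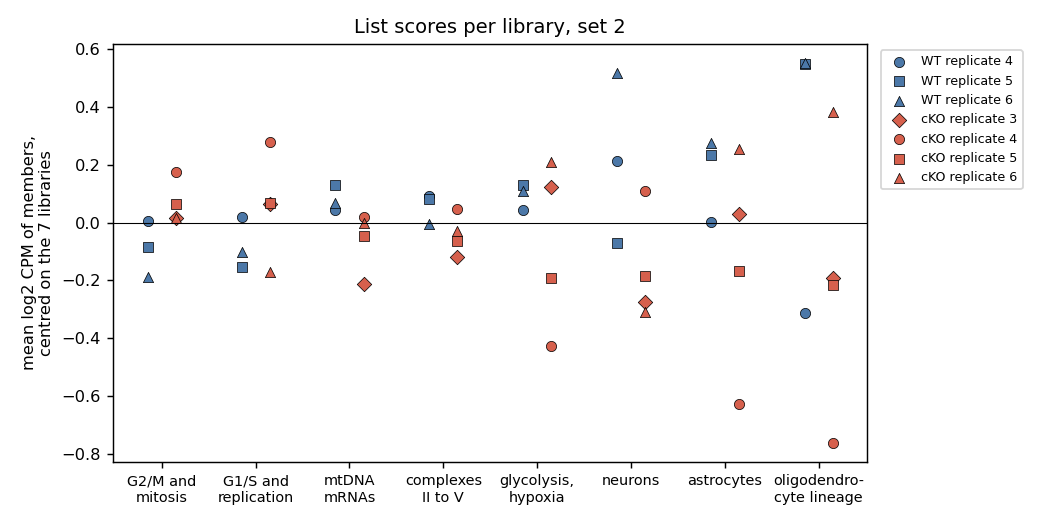
Score of 8 gene lists (mean log2 CPM of the tested members, centred on the mean of the 7 libraries, vertical axis) in each set 2 library, WT in blue and cKO in red, with a marker shape per replicate number. On the mitotic list all cKO libraries lie above all WT libraries by a small margin (lowest cKO 0.01, highest WT 0.0040), while on the glial lists cKO replicate 4 is far lower (-0.63 and -0.76) than the rest.

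Cell type markers varied between the libraries of a genotype, and 0 of them were called. In bulk RNA, fewer cells of a type and less RNA per cell cannot be told apart. Of 19 tested neural stem cell and radial glia genes 6 lay above 0 (median -0.08, and 0.06 in set 1), with a median of -0.03 without cKO replicate 4 and -0.15 without WT replicate 5. Fabp7 had 8950, 9765 and 9872 CPM in WT and 7776, 7226, 8342 and 9707 CPM in cKO (log2 fold change -0.21, SE 0.0798), and Slc1a3 was at -0.19 (SE 0.113). Hes1, a Notch effector, was at -0.41 (SE 0.155), and Tnc, a matrix protein of radial glia, at 0.39 (SE 0.125), with 617, 481 and 388 CPM in WT and 661, 755, 602 and 577 CPM in cKO. Of 8 tested genes of intermediate progenitors 7 lay above 0 (median 0.24), with 0 at an unadjusted p under 0.05. That median was 0.37 without WT replicate 4 and 0.15 without WT replicate 5. The defining gene Eomes was at most at 0.728 CPM and not tested, Elavl4 was at 0.16 (SE 0.0945), Neurod1 at 0.29 (SE 0.165) and Btg2 at -0.20 (SE 0.0987).

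Neuronal genes lay below 0 in 13 of 15 cases (median -0.40), with 5 lower and 0 higher at an unadjusted p under 0.05 and 0 called. Over all genes 4.2% were lower and 3.73% higher at that level. Snap25, a synaptic fusion protein, had 64.3, 50.1 and 71.8 CPM in WT and 42.2, 49.7, 51.0 and 45.4 CPM in cKO (log2 fold change -0.40, SE 0.119). Syt1, the calcium sensor of synaptic vesicles, had 12.6, 12.9 and 12.1 CPM in WT and 9.48, 9.98, 8.84 and 6.55 CPM in cKO, without overlap (-0.53, SE 0.172). Dcx, a microtubule protein of young neurons, was at -0.38 (SE 0.153), and the growth cone gene Gap43 was at 0.24 (SE 0.168). The median was -0.14 without WT replicate 6, the library with the highest score on this list (0.51, against -0.07 and 0.21 in the other WT libraries and -0.31 to 0.11 in cKO). The set 1 median was 0.05, and Syt1 was at 0.51. Reln, a secreted guide of cortical migration, lay below 0 in both sets (-1.28, SE 0.435, in set 2, and -1.06 in set 1). It stood at 1.45 to 2.31 CPM in WT and 0.454 to 1.19 CPM in cKO of set 2. Of 8 tested genes of the ventral and interneuron lineage 3 lay above 0 (median -0.07, but -0.27 without WT replicate 4 and 0.13 without WT replicate 6), with Sp8 at -0.04 (SE 0.158).

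Glial genes lay mostly below 0, and their medians were closer to 0 without cKO replicate 4. Astrocyte scores were 0.0011, 0.23 and 0.28 in WT replicates 4 to 6 and 0.03, -0.63, -0.17 and 0.25 in cKO replicates 3 to 6, and the oligodendrocyte scores had the same library lowest (-0.76). Of 15 astrocyte genes 14 lay below 0 (median -0.23, and -0.04 in set 1), 2 of them at an unadjusted p under 0.05 and none without overlap. At that level 4.2% of all genes were lower. S100b had 8.19, 16.9 and 16.9 CPM in WT and 6.6, 4.45, 7.0 and 10.3 CPM in cKO (log2 fold change -0.97, SE 0.268), and Sparcl1, among the most abundant, was at -0.06 (SE 0.0668). Aldoc is on this list and on the glycolysis list. Without cKO replicate 4 the astrocyte median was -0.06, and without cKO replicate 4 and WT replicate 5 it was -0.05. For the oligodendrocyte lineage 9 of 15 genes lay below 0 (median -0.18, and 0.01 in set 1). The precursor marker Pdgfra was at -0.18 (SE 0.169). Cspg4, a marker of precursors and of mural cells, had 19, 17.1 and 18.8 CPM in WT and 33.0, 22.0, 23.2 and 23.6 CPM in cKO, without overlap (0.48, SE 0.147). Sirt2 was at -0.17 (SE 0.149). The median of this list lay at -0.36 when WT replicate 4 was left out, at -0.07 when WT replicate 6 was left out, and at -0.05 without cKO replicate 4 and WT replicate 5.

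Other cells that a cortical culture could hold left little RNA. Of 13 microglial genes 2 were tested, among them P2ry12 (0.04, SE 0.247). Of 12 endothelial and mural genes 5 were tested, with a summed level over the whole list of 30.6 to 31.1 CPM in WT and 31.5 to 43.8 CPM in cKO, mostly Cspg4, and with Acta2 at -0.12 (SE 0.224) and Kdr at -0.62 (SE 0.602, at most 1.97 CPM). The 11 meningeal genes summed to 3.63 to 4.73 CPM in WT and 1.91 to 6.29 CPM in cKO, with 2 tested: Foxc1 (0.34, SE 0.478) and Abca9 (-1.32, SE 0.449, and -1.22 in set 1). Ependymal genes summed to 6.91 to 7.60 CPM in WT and 6.6 to 7.3 CPM in cKO, with 4 tested, among them Rarres2 (0.30, SE 0.303), Dynlrb2 (-0.12, SE 0.321) and Rsph1 (-0.51, SE 0.476).

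Signalling genes gave 0 calls. At an unadjusted p under 0.05 (edgeR), 3 of 8 lipid signalling genes and 2 of 12 growth hormone signalling genes were lower in cKO. Of 16 Notch pathway genes 2 were higher and 1 was lower at that level. Over all genes 4.2% were lower and 3.73% higher. For receptors and enzymes of lysophosphatidic acid and sphingosine phosphate, lipids that act on progenitors and glia, 8 of 8 tested genes lay below 0 (median -0.30, and 0.0011 in set 1). Lpar1 had 3.57, 5.2 and 8.44 CPM in WT and 3.02, 2.18, 2.80 and 4.15 CPM in cKO (log2 fold change -0.91, SE 0.304, and -0.52 without WT replicate 6), and it was at -0.72 in set 1. S1pr1 was at -0.40 (SE 0.165), the lysophosphatidic acid enzyme gene Enpp2 at -0.23 (SE 0.117) and Lpar6 at -0.04 (SE 0.0837). Growth hormone signalling, set beside Gh, had 8 of 12 genes below 0 (median -0.14, which was -0.05 without cKO replicate 4 and 0.01 without WT replicate 6). Igf1, a growth hormone target in liver, was at -0.85 (SE 0.389, at most 2.77 CPM), the insulin receptor substrate Irs2 at -0.64 (SE 0.263) and Irs1 at -0.01 (SE 0.0809), while Igfbp5 was at -0.35 (SE 0.239). In the Notch pathway 9 of 16 lay above 0 (median 0.02), with the ligand gene Jag1 at 0.45 (SE 0.165), the receptor Notch1 at 0.10 (SE 0.102) and Rbpj, its nuclear partner, at 0.02 (SE 0.0913).

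In the lists of stress and response genes edgeR called 0 genes, and DESeq2 called Pmaip1, a p53 target. Of 18 p53 targets 10 lay above 0 (median 0.02). Pmaip1 was at 0.58 (SE 0.118), Eda2r at 0.20 (SE 0.0789), Trp53inp1 at 0.11 (SE 0.0794) and Plk2 at 0.46 (SE 0.158). Of 14 interferon genes 10 lay below 0 (median -0.14), while 8 of 14 lay above 0 in set 1 (median 0.08). Ifitm3, an antiviral membrane protein, had 153, 166 and 169 CPM in WT and 131, 130, 131 and 140 CPM in cKO, without overlap (-0.29, SE 0.0763, and -0.19 in set 1). B2m was at -0.12 (SE 0.0871) and Usp18 at -0.83 (SE 0.359). Of 16 immediate early genes 13 lay below 0 (median -0.14, -0.03 without cKO replicate 4 and -0.23 without cKO replicate 6). This list went the other way in set 1, with 8 of 13 genes above 0 and a median of 0.08. In set 2 Dusp1 was at -0.72 (SE 0.286) and Dusp6, a feedback inhibitor of ERK, at 0.45 (SE 0.123). Dusp6 stood at 244, 232 and 203 CPM in WT and 329, 369, 312 and 230 CPM in cKO. Without cKO replicate 6, Dusp6 was among 3 genes called (0.0227%). Genes of extracellular matrix and integrins split evenly, 10 above and 10 below 0, with Ncan at -0.34 (SE 0.151) and Cd44 at -0.40 (SE 0.131).

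**Figure D4:**
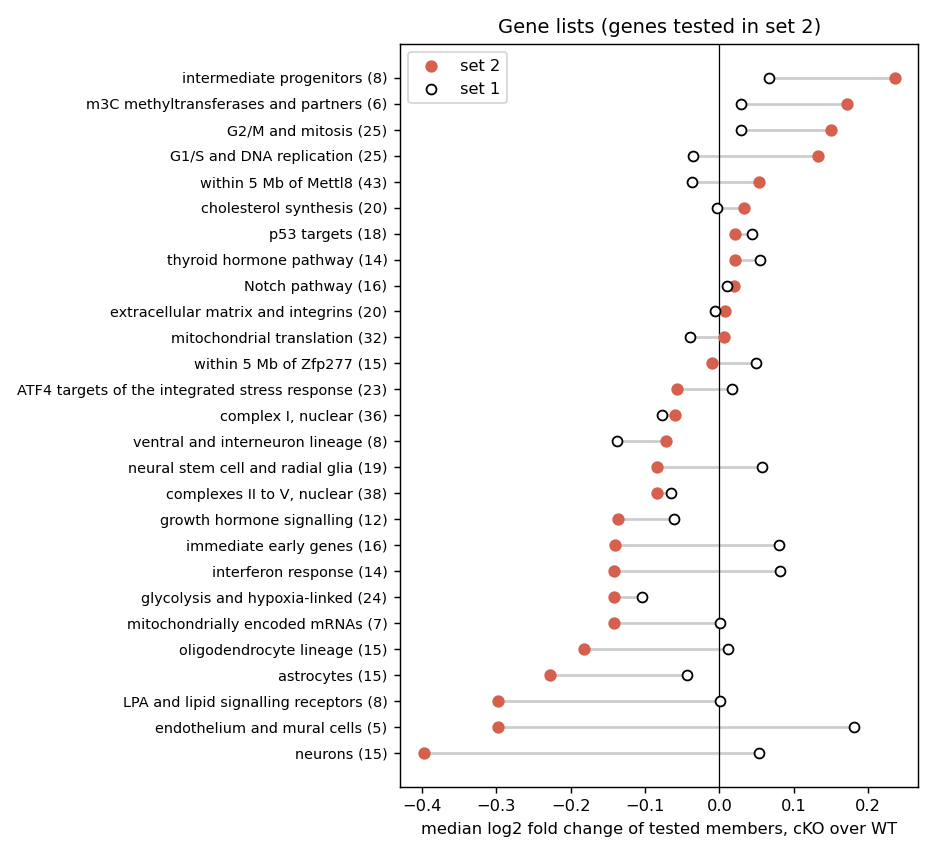
Median log2 fold change, cKO over WT (horizontal axis), of the tested members of each gene list with 5 or more members tested, in set 2 (filled red) and set 1 (open), with the number tested in set 2 in brackets. Neurons lie lowest in set 2 (-0.40) and at 0.05 in set 1, while the lists of complexes II to V (-0.08 and -0.06) and of glycolysis (-0.14 and -0.10) lie close together in both sets.

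Genotype differences in set 2 had almost no relation to those in set 1 across genes. Over 12907 genes tested in both, Pearson r of the log2 fold changes was 0.0093 and Spearman rho 0.02, with genes as points that are not independent replicates. The same sign was seen in 52.1% of these genes, and in 577 of the 1022 genes with an unadjusted p under 0.05 in set 2 (56.5%). Of the 12 higher and the 12 lower genes of smallest p in set 2, 6 and 6 had the same sign in set 1. In set 1 edgeR called 0 of 13322 genes and 285 had an unadjusted p under 0.05 (2.14%), while DESeq2 called 1. The genes with an unadjusted p under 0.05 in both sets were 24, of which 13 had the same sign: Mettl8, Zfp941, Ttll4, Rtkn2, Lmo3 and Cnot1 were higher, and Dio2, Fam19a2, Lpar1, Reln, Uqcrq, Ifi27l1 and Tmem150a lower, in cKO. The other 11 had opposite signs, such as the ephrin receptor gene Epha4 (-0.60 in set 2 and 0.48 in set 1) and the centriole kinase gene Plk4 (0.43 and -0.47). The genes of these groups that no rule had named were chosen after their values were seen. The 24 are part of the 1022 genes with such a p in set 2. Neither count stands out from all genes: 2.14% of set 1 genes had such a p, and 52.1% of genes shared their sign. The interaction of genotype and set was called for 0 of 13105 genes by edgeR, with 464 at an unadjusted p under 0.05 (3.54%), and DESeq2 called 2.

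**Figure D5:**
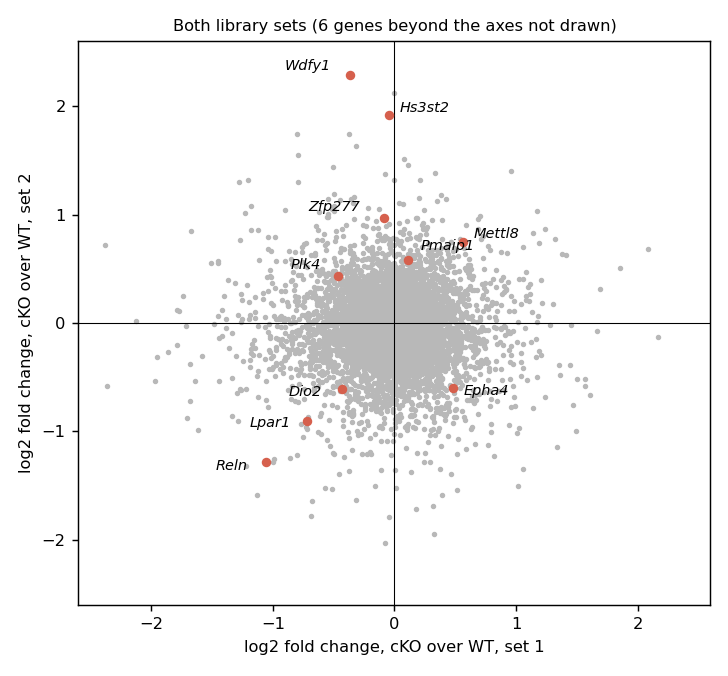
Log2 fold change, cKO over WT, of each gene in set 2 (vertical axis) against set 1 (horizontal axis), with named genes in red and 6 genes beyond the axes not drawn. Points form a round cloud (Pearson r 0.0093 over 12907 genes). Mettl8, Dio2, Reln and Lpar1 lie on the same side of 0 in both sets, as 52.1% of these genes do. Zfp277, Hs3st2 and Wdfy1 lie near or left of 0 in set 1.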

How the data were processed

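RNA-seq was analysed for 7 libraries of set 2, with 5 libraries of set 1 beside them. The deposited table holds raw read counts per gene, which the authors made, per the submitters' processing notes, with bcl2fastq 2.17.1.14, Trimmomatic 0.32 and STAR 2.5.2a on mouse build GRCm38. The counting program, its annotation and its use of strand were not given in the sources used here. Low counts were mostly even (17.2% odd among counts from 1 to 10, 49.9% among counts above 100 up to 1000), so an alternative divided counts by 2. All columns were used (0 left out). The HAC-seq table was not used.

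Of 26621 genes, 7175 had no count in set 2. In R 4.3.3, edgeR 4.0.16 (filterByExpr by genotype, TMM scaling, two-sided quasi-likelihood F test) tested 13367 genes, with Benjamini-Hochberg adjustment over all of them and a threshold of 0.05. CPM are TMM-scaled, log2 CPM used a prior count of 2, and SE come from the F statistic. Alternatives used DESeq2 1.42.0 and limma 3.58.1 (voom), another scaling and other filters, embryo sex as a covariate, all 12 libraries, a replicate block, and each library left out. Scripts were tested on simulated data.

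Genes named are Mettl8, Dio2, Zfp277 and Gh, every gene called, the 12 higher and 12 lower genes of smallest p, and in each list the 2 most abundant tested genes and the 2 of smallest p. The comparison and the lists were chosen with earlier results of these data known. Lists are described by counts and medians without a test. Promoter windows are RefSeq's, matched by symbol for 9269 of the tested genes. A floor of 3 counts covers counting error only.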

Additional observations from a re-analysis of the deposited data

How the results depend on the processing

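The number of genes called in set 2 was 2 with RLE size factors, limma-voom, robust dispersions, counts divided by 2, all 12 libraries or embryo sex as a covariate. With all 12 libraries the pair was Zfp277 and Hs3st2 (adjusted p = 0.0397 for Hs3st2), and without WT replicate 6 it was Mettl8 (0.0373) and Gh. With DESeq2 it was 6 (all higher: Zfp277, Gh, Mettl8, Hs3st2, Pmaip1 and Gle1). With a mean count of at least 50 it was 1 (Zfp277). Without a filter it was 105 (33 higher and 72 lower), and 39 of the 105 did not overlap between genotypes. Of the 13367 genes of the main fit, 3.87% were higher and 4.06% lower without overlap. The higher genes included the Y-linked Ddx3y, Eif2s3y, Uty and Kdm5d, which overlapped between genotypes, and cKO replicate 5 was the sole male library. The number called ranged from 0 to 3 with 1 library left out. It was 0 without WT replicate 4 or WT replicate 5, and 3 without cKO replicate 3 or cKO replicate 6. Without cKO replicate 4 and WT replicate 5 together it was 0. With a replicate block on the shared numbers it was 30 (7 higher and 23 lower, 28 of them among the 105). The deviations of same-numbered libraries from their genotype means correlated at 0.146, -0.0022 and 0.06 for numbers 4, 5 and 6, and only number 4 was its own best match. So few libraries cannot show whether a shared number marks a shared litter or day, and the labels do not say. In set 1 the count of 0 was 10 without a filter, 1 with DESeq2 and 0 to 6 with 1 library left out (6 without cKO replicate 2, 1 without WT replicate 1). For the interaction it was 35 without a filter, 2 with DESeq2 and 0 to 1 with 1 library left out (1 without cKO replicate 3). The cause of these changes was not tested. All 24 genes named for their own p kept their sign under every alternative that gave a value, 18 at most. Zfp277 was called under 14 of 18 and Gh under 13 of 17 (adjusted p up to 0.127 and 0.365). Of 28 list medians 17 kept their sign throughout. The other 11 changed sign under at least 1 alternative: the thyroid, growth hormone signalling, mitochondrial translation, ATF4, ventral, endothelial, Notch, matrix, cholesterol and p53 lists and the genes near Zfp277. The smaller depth of the cKO libraries and 3 WT libraries limit what can be called at low counts.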
